A study of Mus musculus with 12 samples.

Results

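Amygdala transcriptomes of mice that made few entries in the elevated plus maze (EPM) were compared with those of mice that made many. The mice were grouped by the total entry count in their labels, which adds visits to the open and the closed arms. Below 30 entries put a mouse in the few-entries group and 30 or more in the many-entries group. This gave 6 mice with few entries (mice 1, 2, 3, 4, 9 and 11) and 5 with many (mice 6, 7, 8, 10 and 12), 11 of the 12 mice sequenced. Mouse 5, which has no anxiety state in its labels, was left out. It had 23768 genes with a read, against 26378 to 28196 with few and 27101 to 27763 with many entries. The paper also removed this mouse, as an outlier in its expression data. All mice were age-matched, unmanipulated young adult females of the inbred C57/BL6 strain, with no transgene, allele or drug in any group. Each gave 1 library from both amygdalae, cut by dissection from a brain slice and read in a single sequencing batch. The tissue is therefore bulk, and in bulk samples fewer cells of a type cannot be told apart from less RNA per cell.

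The EPM is a raised cross with open and walled arms. Time on the open arms is the usual readout of anxiety-like avoidance, whereas the number of arm entries also follows how much an animal walks and explores. The amygdala joins a cortex-like basolateral complex of glutamatergic neurons to a central nucleus of GABAergic neurons, which are related to the projection neurons of the neighboring striatum and shape defensive behavior. Dopamine receptors, neuropeptides and stress hormone receptors are well studied in both. The maze was the first of the behavior tests, and it was run weeks before the tissue was taken.

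The entries themselves chose the groups and were not tested. The 6 mice of the few-entries group made 6, 15, 22, 24, 28 and 29 entries, a mean of 20.7 ± 8.76 (SD). The 5 mice of the many-entries group made 30, 31, 31, 36 and 42, a mean of 34.0 ± 5.05 (SD). The border was narrow, since mouse 3 with 29 entries lay just inside the few-entries group and mouse 8 with 30 just outside it. The study's anxiety states, which were set from a principal component of the transcriptomes, cut across the groups. The few-entries group held 1 less anxious, 3 anxious and 2 more anxious mice, and the many-entries group held 2, 1 and 2.

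No other behavior measure differed between the groups beyond its spread. Open-arm time, from the same EPM session, was lowest at 2.33%, 11.8% at the median and 20.1% at the highest in mice with few entries. In mice with many entries it was 29.2% in mouse 6, 24.5% in mouse 7, 14.7% in mouse 8, 3.25% in mouse 10 and 24.6% in mouse 12. The groups overlapped because mice 8 and 10 lay among the mice with few entries, while mice 6, 7 and 12 lay above all of them. The means were 11.3% ± 7.69 and 19.3% ± 10.4 (SD), a difference of 7.97 percentage points (two-sided exact permutation test of the means, p = 0.171, or 0.619 once adjusted for 6 measures).

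In the light-dark (LD) box, a chamber pair in which mice avoid the lit side, time in the light averaged 22.8% ± 8.85 (SD) with few and 27.3% ± 11.3 with many entries (exact permutation p = 0.498, adjusted 0.727). The higher mean of the many-entries group rested on mouse 6 at 46.6%. Without it the difference was -0.380 percentage points. The share of distance walked in the light averaged 27.8% ± 8.86 and 31.0% ± 7.10 (exact permutation p = 0.530, adjusted 0.727). The box zone ratio of the social interaction test (SIT), in which a mouse can approach a caged stranger, had means of 1.23 ± 0.762 and 1.06 ± 0.440 at 10 min (exact permutation p = 0.727, adjusted 0.727). It was 1.18 ± 0.557 and 1.06 ± 0.399 at 5 min (exact permutation p = 0.712, adjusted 0.727). At 3 min, where mouse 4 has no value, it was 1.26 ± 0.480 in 5 mice and 0.865 ± 0.463 in 5 mice (exact permutation p = 0.206, adjusted 0.619).

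**Figure D1:**
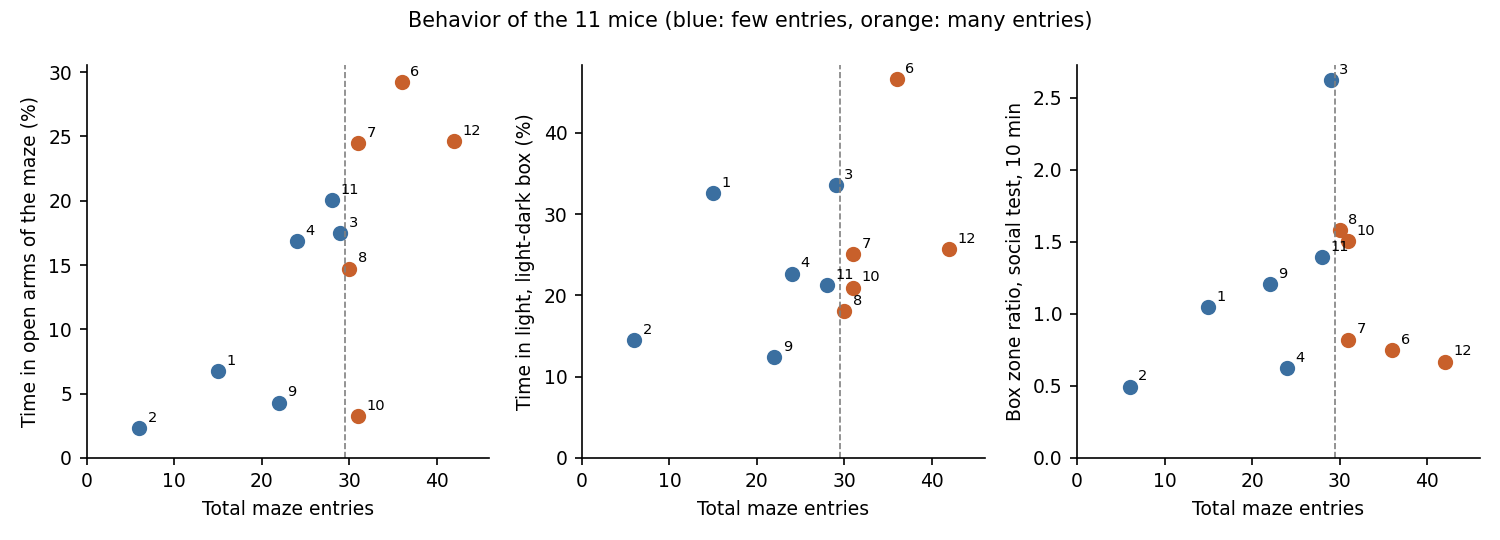
Open-arm time in the EPM (%), time in the light of the LD box (%) and the box zone ratio of the SIT at 10 min against total maze entries; each point is a mouse, numbered, with few-entries mice in blue and many-entries mice in orange, and the dashed line marks the border between 29 and 30 entries. Open-arm time reached 29.2% in mouse 6 but was 3.25% in mouse 10, which made 31 entries.

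Depth did not separate the groups. Totals of deposited estimated counts ran from 31745630 to 45142355 with few and from 33278984 to 40120236 with many entries (exact permutation p = 0.483, adjusted over 19 depth and marker measures 0.936). Genes with a read, the share of the 10 highest genes and the mitochondrially encoded share had exact permutation p values of 0.978, 0.571 and 0.476. Markers of basolateral, central and medial amygdala were read in every mouse. Summed CPM (counts scaled to library size with edgeR's TMM factors) was 3121.69 to 4584.41 for basolateral and cortical-type excitatory markers, 608.7 to 922.4 for central amygdala markers and 159.4 to 252.7 for medial amygdala and hypothalamic-type markers. Distances between mice on log2 CPM were much the same between groups (median 66.2 over 30 pairs) as within the few-entries group (64.5 over 15 pairs) and the many-entries group (62.9 over 10 pairs).

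No gene passed the adjusted test. edgeR's quasi-likelihood test called 0 of 26963 genes at an adjusted p under 0.05 (0.0%), and the smallest adjusted p was 0.148. At an unadjusted p under 0.05 there were 1908 genes (7.08%), with 974 higher in mice with many entries (3.61%) and 934 lower (3.46%). The log2 fold change was above 0 in 49.2% of genes, with a median of -0.0044. DESeq2's Wald test on the same counts called 57 genes (0.211%), 31 higher and 26 lower, and its likelihood ratio test 51, all of which the Wald test called too. The Wald test gave 2672 genes no adjusted p. Of the 57 genes, 47 had at least 3 reads in every mouse and 56 had an unadjusted p under 0.05 in edgeR. The CPM ranges of the groups did not overlap for 167 genes (0.619%), and for 113 of the 15891 genes with a mean of at least 1 CPM (0.711%), 49 of them higher and 64 lower with many entries. The 20 genes described next are the protein-coding genes of that last set with the lowest unadjusted p in each direction, so their separation is a condition of their choice. DESeq2's Wald test called all 20 of them and its likelihood ratio test 19, whereas edgeR called 0.

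**Figure D2:**
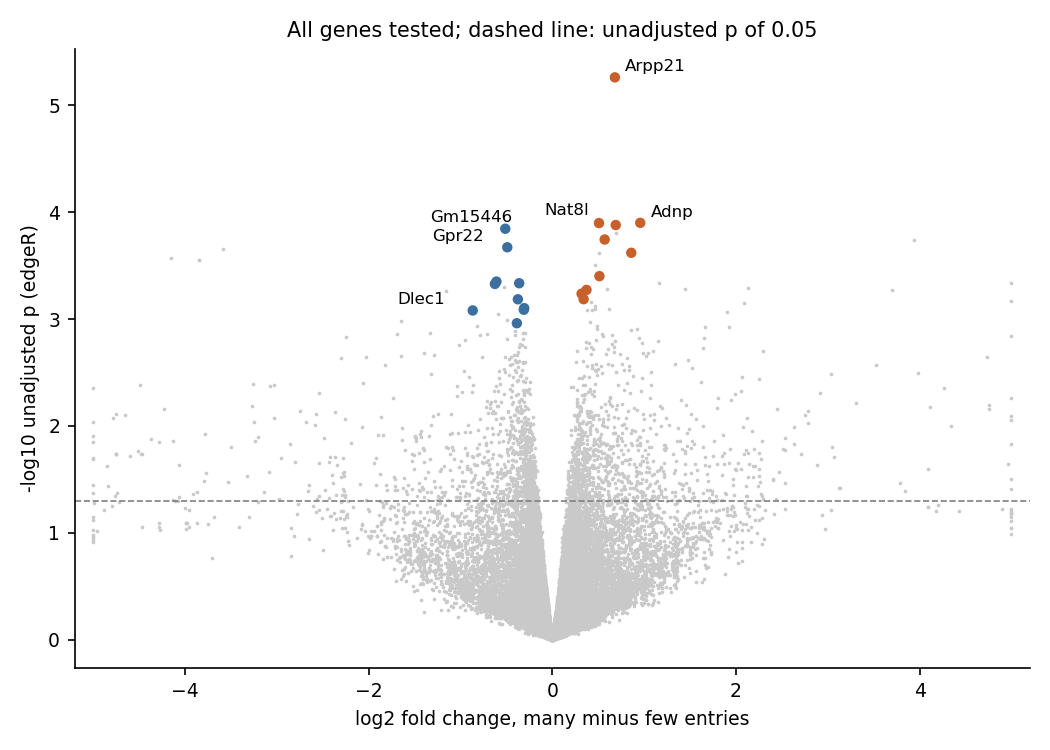
log2 fold change (many minus few entries, drawn at 5 or -5 where larger) against -log10 of edgeR's unadjusted p for the 26963 genes tested, with the 10 named genes that were higher (orange) and the 10 lower (blue) in mice with many entries. Arpp21 stood apart from the other genes with an unadjusted p of 5.49e-06, and the cloud was near even on both sides of 0.

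Arpp21, which encodes a cAMP-regulated phosphoprotein that binds RNA and is abundant in dopamine-responsive and cortical neurons, had the lowest p of all genes (ENSMUSG00000032503, chr9:112065091-112235938 on the minus strand of GRCm38). With few entries its CPM was 304 at the lowest, 349 at the median and 425 at the highest. With many entries it was 671 in mouse 6, 620 in mouse 7, 503 in mouse 8, 543 in mouse 10 and 506 in mouse 12. All 5 lay above mouse 9, the highest mouse with few entries, so the groups did not overlap. The means were 354 ± 39.3 and 569 ± 74.3 CPM (SD), a log2 fold change of 0.68 ± 0.10 (SE) with an edgeR unadjusted p of 5.49e-06 and an adjusted p of 0.148. DESeq2's adjusted p was 2.43e-06 in the Wald test and 4.19e-06 in the likelihood ratio test. Leaving out each mouse in turn gave log2 fold changes of 0.62 to 0.75 and unadjusted p up to 2.8e-05. The DESeq2 tests and these fits used the same mice that chose the gene, so they are no separate evidence. With a border at 25 entries the log2 fold change was 0.50 (edgeR adjusted p = 0.99). Against entries as a number, the log2 slope of Arpp21 was 0.30 ± 0.080 (SE) per 10 entries (edgeR unadjusted p = 0.0021, adjusted 0.576), from the same entries and mice that chose the gene and so no separate evidence. The mouse with the most entries, mouse 12, was not the highest and mouse 2, with 6 entries, was the lowest. An antisense gene, 2900079G21Rik, overlaps exons of Arpp21, and whether the counting used strand is not given in the sources used here.

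Nat8l, the enzyme that makes N-acetylaspartate in neurons (ENSMUSG00000048142, chr5:33995984-34005916), was at 135, 145 and 174 CPM at the lowest, median and highest with few entries. It was at 228 CPM in mouse 6, 195 in mouse 7, 196 in mouse 8, 198 in mouse 10 and 261 in mouse 12. The log2 fold change was 0.51 ± 0.10 (SE, edgeR unadjusted p = 0.000127, adjusted 0.441), and its slope of 0.26 ± 0.053 per 10 entries had a lower unadjusted p (0.000155) than that of Arpp21. Mice 12 and 6, which made the most entries, had the highest Nat8l values. Neither p passed the adjustment in edgeR. The slope and this order come from the same entries and mice that chose the gene, so they are no separate evidence.

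Rgs2, which speeds the shutdown of G protein signals downstream of many transmitter receptors, spanned 47.7 to 58.4 CPM (median 53.8) with few entries. With many entries it was 71.9 in mouse 6, 69.9 in mouse 7, 63.7 in mouse 8, 64.8 in mouse 10 and 64.6 in mouse 12, a log2 fold change of 0.32 ± 0.07 (SE, edgeR unadjusted p = 0.000579, adjusted 0.473). The difference of the means was larger than the SDs of 3.92 and 3.65 CPM within the groups. This was in part fixed in advance, because Rgs2 was chosen for groups that did not overlap.

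The other 7 genes that were higher with many entries had log2 fold changes from 0.34 to 0.96 and edgeR adjusted p of 0.441 to 0.487. They cover chromatin and transcription (Adnp, the activity-dependent neuroprotector homeobox gene, and the corepressor gene Cbfa2t2), immune signals (Stat6, the interleukin-4 signal transducer, and the checkpoint receptor gene Vsir), adhesion (the gamma-protocadherin Pcdhgc5), the nuclear envelope gene Tmem209 and Glcci1, a glucocorticoid-induced transcript. Adnp had the largest log2 fold change of the 10 (0.96 ± 0.19 SE), with means of 4.83 ± 1.40 and 9.40 ± 1.83 CPM (SD). Stat6 averaged 4.95 ± 0.628 and 7.99 ± 1.41 CPM, Vsir 13.9 ± 1.71 and 20.7 ± 3.10, and Glcci1 4.52 ± 1.07 and 8.21 ± 1.86. Pcdhgc5 averaged 87.8 ± 8.59 and 125 ± 24.7 CPM, and its count is uncertain because the gamma-protocadherins share exons. Adnp, Stat6 and Glcci1 also overlap exons of other genes.

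Among the genes lower with many entries, Gpr22, an orphan G protein-coupled receptor of the brain and heart (ENSMUSG00000044067, chr12:31706867-31713947), was at 61.7 CPM at the lowest, 73.9 at the median and 92.4 at the highest in mice with few entries. It was at 50.2 in mouse 6, 53.1 in mouse 7, 59.4 in mouse 8, 59.0 in mouse 10 and 50.0 in mouse 12. The nearest mice of the groups were mouse 9 at 61.7 and mouse 8 at 59.4, and the log2 fold change was -0.49 ± 0.10 (SE, edgeR unadjusted p = 0.000213, adjusted 0.441).

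Slc4a10, a sodium-bicarbonate transporter that sets neuronal pH (ENSMUSG00000026904, chr2:62046462-62326730), was at 206 CPM at the lowest, 223 at the median and 256 at the highest with few entries. With many entries it was 170 in mouse 6, 187 in mouse 7, 166 in mouse 8, 200 in mouse 10 and 172 in mouse 12. Mouse 10 came nearest to the few-entries group, and the log2 fold change was -0.36 ± 0.08 (SE, edgeR unadjusted p = 0.000463, adjusted 0.46). Lamb1, a laminin chain of the basement membrane, averaged 35.2 ± 8.14 CPM with few and 22.8 ± 1.98 with many entries (SD). Its spread was wide among mice with few entries, from 25.1 to 47.4 CPM, and narrow among those with many, from 20.0 to 24.4.

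The other 7 genes of this direction had log2 fold changes from -0.87 to -0.30. They were the gene model Gm15446, the centriole gene Poc1b, the RNA-binding zinc finger gene Zfr2, the actin-bundling plastin Pls3, Ogfrl1, Dlec1 and Emb, an adhesion protein that escorts lactate transporters to the membrane. Dlec1 averaged 5.10 ± 0.642 CPM with few and 2.80 ± 0.976 with many entries (SD), and Pls3 196 ± 9.06 and 159 ± 12.1. Gm15446, Poc1b, Dlec1 and Emb overlap exons of other genes, Poc1b on the same strand.

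**Figure D3:**
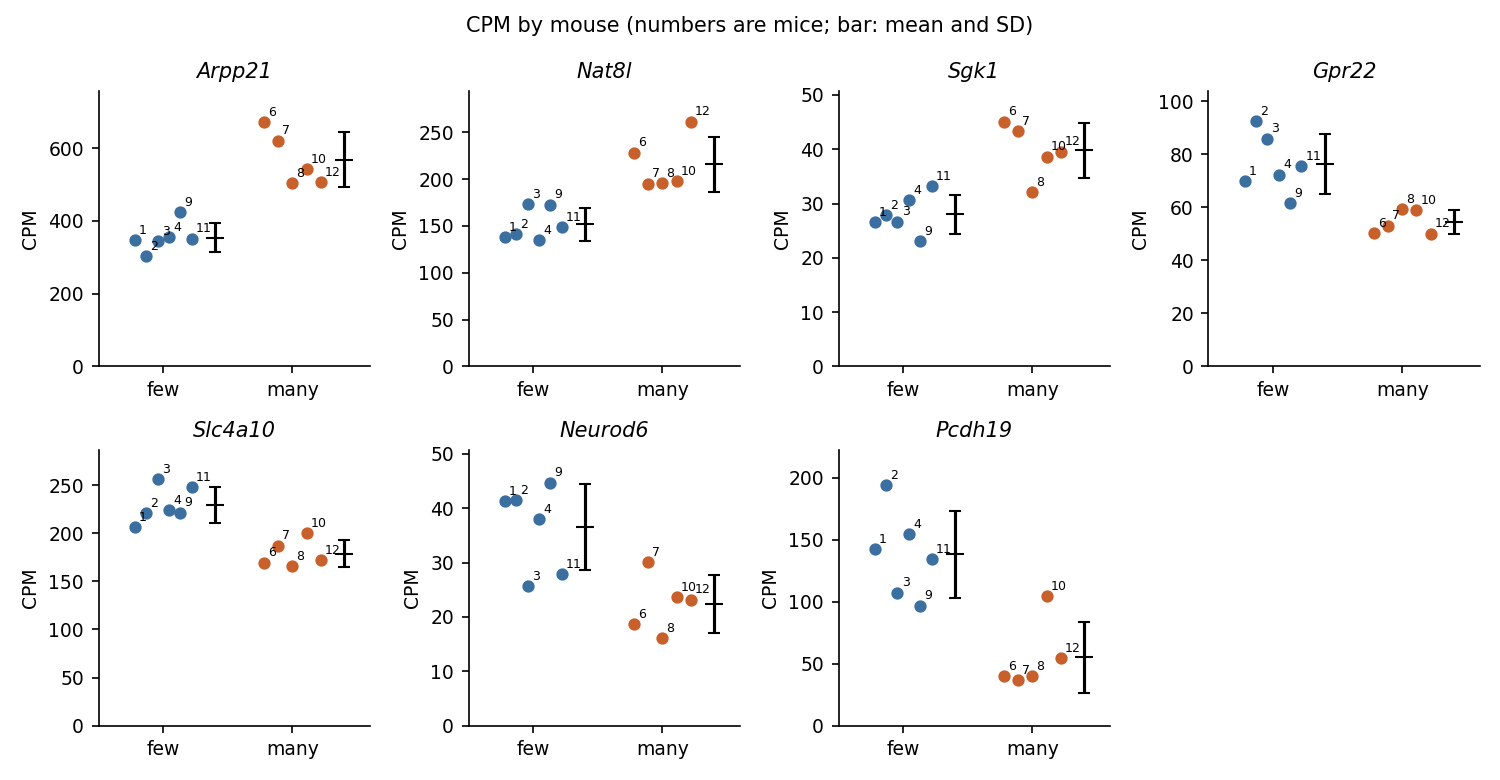
CPM of 7 genes in each mouse, numbered, with few-entries mice in blue and many-entries mice in orange, each group with its mean and SD as a black bar. The groups do not overlap for Arpp21, Nat8l, Gpr22 and Slc4a10, whereas for Sgk1, Neurod6 and Pcdh19 at least 1 mouse lies within the other group.

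Another 3 genes, whose groups overlapped, stood out in the main or an alternative test and are named because of their values. Pcdh19, an X-linked adhesion molecule whose human form is mutated in an epilepsy of girls, was at 96.8 CPM at the lowest, 138 at the median and 194 at the highest with few entries. With many entries it was 39.7 in mouse 6, 36.7 in mouse 7, 39.7 in mouse 8, 105 in mouse 10 and 54.7 in mouse 12. Mouse 10 lay among the mice with few entries, and the log2 fold change was -1.33 ± 0.30 (SE, edgeR unadjusted p = 0.00135, adjusted 0.523). Without mouse 10, edgeR called Pcdh19 (log2 fold change -1.69) and Clptm1 (0.82), a gene of receptor retention in the endoplasmic reticulum that averaged 132 ± 9.22 and 214 ± 52.7 CPM. Mouse 10 was the only many-entries mouse within the few-entries range for both genes, so leaving it out could only widen their differences. With all 11 mice Clptm1 ranked 7 by p (edgeR unadjusted p = 0.000157, adjusted 0.441). The kinase gene Mapk15 averaged 5.31 ± 1.22 and 2.71 ± 0.531 CPM, with only mouse 1 of the few-entries group, at 3.31, within the range of the other group. It ranked 2 by p among all genes, after Arpp21 (edgeR unadjusted p = 0.000118, adjusted 0.441).

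Genes of striatal-type projection neurons, the GABAergic dopamine-responsive cells of the striatum and of related central amygdala neurons, had higher group means in mice with many entries, but no member passed the adjusted test. All 18 had a log2 fold change above 0, where 49.2% of all genes did, and the median was 0.64 against -0.0044. An unadjusted p under 0.05 was reached by 6 of the 18, all higher with many entries, against 3.61% of all genes in that direction. None had separate ranges, which 0.711% of all genes with a mean of at least 1 CPM had. The members are expressed by the same cells, so they are not independent of each other. This list and those below were chosen with earlier results of these data known. The contrast with all genes is therefore no separate evidence.

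Drd1, the dopamine receptor of the direct pathway, had the lowest p of the list (ENSMUSG00000021478, chr13:54051183-54055705). It was at 10.6 CPM at the lowest, 15.7 at the median and 18.9 at the highest with few entries. With many entries it was 24.1 in mouse 6, 29.5 in mouse 7, 13.8 in mouse 8, 24.8 in mouse 10 and 37.7 in mouse 12. Mouse 8 lay within the few-entries range and the other four above it, and the log2 fold change was 0.76 ± 0.23 (SE, edgeR unadjusted p = 0.0063, adjusted 0.605). Ppp1r1b, the dopamine-regulated phosphatase inhibitor DARPP-32, followed the same order of mice within the many-entries group. Its range was 46.6 to 134 CPM (median 68.2) with few entries, and with many it was 135, 180, 72.6, 173 and 255 in mice 6, 7, 8, 10 and 12 (log2 fold change 1.01 ± 0.35 SE, edgeR unadjusted p = 0.0169, adjusted 0.63).

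Other members below an unadjusted p of 0.05 were the receptor gene Gpr6 (log2 fold change 0.89 ± 0.28 SE), the phosphodiesterase Pde1b (0.30 ± 0.11) and Scn4b, a sodium channel subunit (2.06 ± 0.77). Scn4b was at 89.5 CPM in mouse 12 and 3.87 in mouse 8, a wider spread within the many-entries group than between the group means. Drd2, the receptor of the indirect pathway, averaged 3.01 ± 1.75 and 6.43 ± 5.03 CPM (log2 fold change 1.10 ± 0.57 SE, edgeR unadjusted p = 0.081, adjusted 0.733), and its many-entries values were 5.42, 7.50, 1.80, 2.92 and 14.5 in mice 6, 7, 8, 10 and 12. Penk, the enkephalin precursor of the same cells, averaged 235 ± 77.1 and 365 ± 170 CPM (0.63 ± 0.34 SE, edgeR unadjusted p = 0.0941, adjusted 0.748).

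The mean level of the 18 genes (log2 CPM, centered over the 11 mice) was 1.18 in mouse 12, 0.64 in mouse 7, 0.26 in mouse 6, 0.03 in mouse 10 and -0.58 in mouse 8. Among mice with few entries it ranged from -0.65 in mouse 4 to 0.19 in mouse 1. Mouse 8, which sat at the border with 30 entries, was thus as low as the lowest mice with few entries. Their summed CPM was 938.2 to 1453.37 with few and 980.5 to 2339.82 with many entries (exact permutation p = 0.0671, adjusted 0.936). Without mouse 12 the median log2 fold change was 0.32, with 3 members under an unadjusted p of 0.05 and 16 above 0. Without mouse 8 it was 0.85 with 13 members, and with a border at 25 entries it was 0.44 with 0 members. With the predicted anxiety state, which the study set from these same transcriptomes, as a factor it was 0.23. There 1 member was under 0.05 and 17 were above 0. With open-arm time as a covariate it was 0.42, with 4 members and 16 above 0. With the score on the first principal component of the transcriptomes as a covariate it was 0.89, with 10 members and 18 above 0.

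Arpp21 followed this order of mice only in part. Within the many-entries group, mouse 8 was the lowest for Arpp21, at 503 CPM, and on the striatal-type list. Mice 7 and 6 were above mouse 10 for both. Mouse 12, the highest on the list, was at 506 CPM for Arpp21 and thus near mouse 8. Whether the dissection took in more striatal tissue in some mice was not tested. The 12 central amygdala markers showed no shared direction, with 5 above 0. At an unadjusted p under 0.05, 2 members were higher (Ppp1r1b and Wfs1) and 2 lower (Nts and Prkcd), against 3.61% and 3.46% of all genes. Ppp1r1b is also a member of the striatal-type list. Prkcd, the protein kinase of a central amygdala cell class that restrains defensive output, had a log2 fold change of -0.52 ± 0.23 (SE, edgeR unadjusted p = 0.0429).

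**Figure D4:**
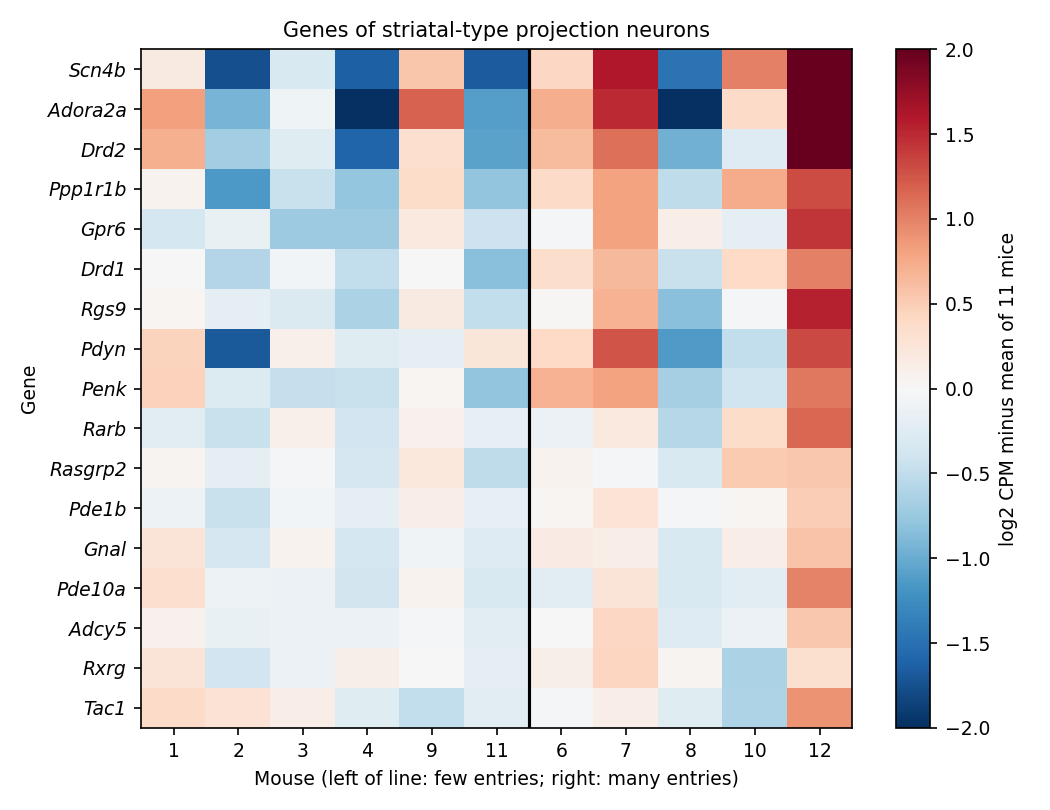
log2 CPM of 17 of the 18 striatal-type projection neuron genes, each minus its mean over the 11 mice (color scale limited to -2 and 2), by mouse, with few-entries mice left of the line and many-entries mice right of it. Mice 12 and 7 were the highest and mouse 8 among the lowest, within the same group.

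Cholesterol synthesis genes leaned the same way by a smaller amount. Of 22 enzymes and regulators, 20 had a log2 fold change above 0, with a median of 0.18, and 6 had an unadjusted p under 0.05, all higher with many entries (3.61% of all genes were). In this pathway a fall in membrane sterol releases a transcription factor that turns on its enzymes together. None passed the adjusted test.

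Insig1, which holds the sterol sensor in the endoplasmic reticulum, was at 48.9 CPM at the lowest and 70.9 at the highest with few entries. With many entries it was 72.9, 72.9, 66.3, 86.6 and 74.7 in mice 6, 7, 8, 10 and 12. Mouse 9 of the few-entries group, at 70.9, was above mouse 8, at 66.3, and the other many-entries mice lay above the whole few-entries group (log2 fold change 0.34 ± 0.10 SE, edgeR unadjusted p = 0.00413, adjusted 0.563).

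The enzymes Msmo1, Dhcr7 and Mvd were also under an unadjusted p of 0.05, with log2 fold changes of 0.31, 0.45 and 0.31. At the other end Tm7sf2, Fdft1 and Ebp lay within 0.05 of 0. Mouse 9 had the highest level of the list among mice with few entries, at 0.10 on the centered log2 scale, and mouse 12 the lowest with many entries, at -0.01. Without mouse 9 there were 11 members with an unadjusted p under 0.05, and without any other mouse 5 or 6. With a border at 25 entries there was 1. Against entries as a number there were 3, with 19 of the 22 slopes above 0.

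Clock and stress hormone genes had a few members each. Of 19 circadian clock genes, 4 had an unadjusted p under 0.05 and all were higher with many entries (3.61% of all genes were), while the median of the list was 0.08 and 10 members were above 0. Bhlhe40, a repressor induced by activity and hormones as well as by the clock, was at 45.7, 56.7 and 65.4 CPM at the lowest, median and highest with few entries and at 88.5, 87.6, 72.4, 90.6 and 55.5 in mice 6, 7, 8, 10 and 12. Mouse 12 lay within the few-entries range (log2 fold change 0.49 ± 0.12 SE, edgeR unadjusted p = 0.00125, adjusted 0.523). The others were the output factor Tef (0.45), the repressor Nr1d1 (0.26) and the core gene Per2 (0.86 ± 0.35 SE), which reached 91.1 CPM in mouse 7 and 11.6 in mouse 3. Arntl and Clock, the activators at the core of the clock, had log2 fold changes of -0.02 and -0.08. The hour of tissue collection is not in the labels, and its part in these values was not tested. Against entries as a number or with a border at 25 entries, 0 members were higher and 1 lower at an unadjusted p under 0.05, and without mouse 10 the count was 2 higher.

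Of 17 glucocorticoid receptors and targets, 3 had an unadjusted p under 0.05, all higher with many entries (3.61% of all genes were). The lowest p belonged to Sgk1, a kinase induced by glucocorticoids and also abundant in myelinating cells. It was at 23.1, 27.3 and 33.2 CPM at the lowest, median and highest with few entries. With many it was 45.1 in mouse 6, 43.4 in mouse 7, 32.1 in mouse 8, 38.7 in mouse 10 and 39.6 in mouse 12 (log2 fold change 0.51 ± 0.11 SE, edgeR unadjusted p = 0.000242, adjusted 0.441). Mouse 11 at 33.2 and mouse 8 at 32.1 were the only pair out of order. The cell cycle inhibitor Cdkn1a and the mineralocorticoid receptor gene Nr3c2 had log2 fold changes of 0.49 and 0.43. The glucocorticoid receptor gene Nr3c1 (-0.13) and the classical targets Fkbp5 (0.07) and Tsc22d3 (-0.03) had unadjusted p of 0.255, 0.524 and 0.725, so the list as a whole, with a median of 0.05, sat near that of all genes. The higher members numbered 1 with a border at 25 entries, with entries as a number or without mouse 10, and 5 without mouse 12. With the score on the first principal component (PC1) as a covariate the median was -0.10, with 5 of 17 above 0.

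Immediate early genes, which neurons switch on within minutes of firing, did not separate the groups. None of the 29 had an unadjusted p under 0.05 (7.08% of all genes did), though 22 were above 0, with a median of 0.13. Egr1 had the lowest p among those of at least 1 CPM, with means of 127 ± 25.6 and 156 ± 39.1 CPM (SD, edgeR unadjusted p = 0.0969, adjusted 0.752). Fos was between 4.28 and 36.3 CPM with few entries and was 23.1, 32.2, 36.1, 42.9 and 19.9 with many (log2 fold change 0.59 ± 0.51 SE, edgeR unadjusted p = 0.282, adjusted 0.851). Npas4 averaged 19.5 ± 7.30 and 21.2 ± 2.39 CPM (0.12 ± 0.24 SE, edgeR unadjusted p = 0.621, adjusted 0.945). The lowest few-entries values of Fos and Npas4 were those of mouse 3, at 4.28 and 9.31 CPM, the mouse with 29 entries. The direction of the list turned with the coding of the groups. With a border at 25 entries its median was -0.05, and against entries as a number 9 of 29 slopes were above 0. With open-arm time as a covariate the median was 0.21, with 25 above 0 and 2 higher at an unadjusted p under 0.05. It was 0.31 with the predicted anxiety state as a factor, with 25 above 0 and 1 such member. The PC1 covariate gave -0.01, with 13 above 0 and 1 member lower at that threshold.

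Transmitter and peptide genes gave scattered members, to be read against the 3.61% of all genes that were higher and the 3.46% that were lower at an unadjusted p under 0.05. Of 12 dopamine genes, Drd1 and Th, the enzyme that starts dopamine synthesis, were higher with many entries at an unadjusted p under 0.05, Th with means of 1.55 ± 0.442 and 2.34 ± 0.621 CPM (SD). Of 30 neuropeptide receptors, 3 were higher and 0 lower. Mc4r, the melanocortin receptor of feeding and stress circuits, led them with 3.18 ± 0.513 and 4.50 ± 0.928 CPM (log2 fold change 0.50 ± 0.16 SE, edgeR unadjusted p = 0.0079, adjusted 0.605). Cckar (0.93) and Sstr3 (0.23) were the others. Of 23 neuropeptides 3 were lower and 0 higher, and the median was -0.25. They were the neurotensin precursor gene Nts (-0.46), Grp (-0.46), the gastrin-releasing peptide of basolateral neurons, and Pomc (-1.40). The value of Pomc rested on mice 11 and 4, since it was -0.78 without mouse 11 and -0.32 without both. Crh, the corticotropin-releasing hormone of the central nucleus, averaged 5.25 ± 0.715 and 5.76 ± 0.962 CPM (0.13 ± 0.14 SE, edgeR unadjusted p = 0.361, adjusted 0.88).

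The same shares of all genes, 3.61% higher and 3.46% lower, hold for the lists that follow. Among 29 serotonin, adrenergic, acetylcholine and cannabinoid genes, the serotonin receptor Htr2a was higher with many entries (log2 fold change 0.44), and the nicotinic subunit Chrna4 (-0.38) and the cannabinoid receptor Cnr1 (-0.24) were lower, at unadjusted p of 0.0168, 0.00878 and 0.013. Of 25 glutamate genes, Gria4 and Grin2a were lower (-0.22 and -0.19), and of 21 GABA genes the extrasynaptic receptor subunit Gabrd was higher (0.43). The 39 synaptic vesicle and scaffold genes held 5 higher members, among them the adhesion gene Nrxn3 (0.28) and the kinase Camk2b (0.20), and 1 lower. That was Dlg4, the scaffold PSD-95, with means of 845 ± 140 and 641 ± 114 CPM (log2 fold change -0.40 ± 0.13 SE, edgeR unadjusted p = 0.00702, adjusted 0.605). Of the 39, Camk2b alone had separate ranges, 559 to 632 CPM with few and 660 to 716 with many entries. Ranges were separate for 0.711% of all genes with a mean of at least 1 CPM. Of 35 voltage-gated channel genes, 1 was higher, the pacemaker channel Hcn4 (0.32), and 2 were lower, among them Kcnn2 (-0.26).

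**Figure D5:**
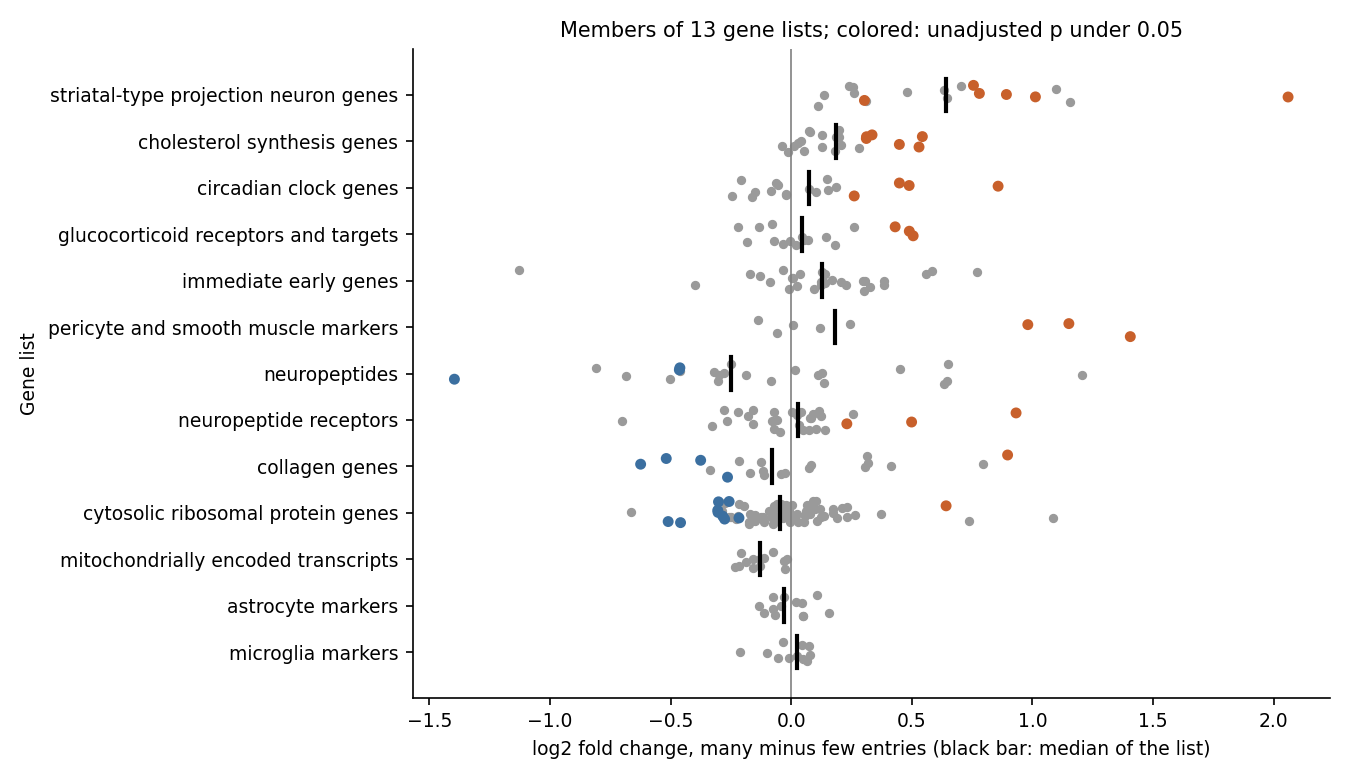
log2 fold change (many minus few entries) of every member of 13 gene lists, with members at an unadjusted p under 0.05 in orange (higher with many entries) or blue (lower) and the median of each list as a black bar. The striatal-type list lies wholly above 0 with a median of 0.64, and the 13 mitochondrially encoded transcripts wholly below it with a median of -0.13.

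Smooth muscle genes of vessel walls were higher in some mice with many entries. Of 8 pericyte and smooth muscle markers, the contractile genes Myh11, Acta2 and Tagln had log2 fold changes of 1.15, 1.41 and 0.98 and unadjusted p of 0.00162, 0.00578 and 0.0213 (3.61% of all genes were higher at an unadjusted p under 0.05). Myh11, the smooth muscle myosin, ranged from 5.34 to 8.95 CPM (median 7.20) with few entries and was 13.2, 9.79, 9.43, 18.2 and 29.2 in mice 6, 7, 8, 10 and 12, so its groups did not overlap (edgeR adjusted p = 0.523). It was the only one of the 8 without overlap, against 0.711% of all genes with a mean of at least 1 CPM. The pericyte genes Rgs5, Kcnj8, Abcc9 and Pdgfrb had log2 fold changes of -0.14, -0.06, 0.01 and 0.12. The summed CPM of the list was 175.6 to 212.6 with few and 159.6 to 304.5 with many entries (exact permutation p = 0.203, adjusted 0.936). With a border at 25 entries 0 members were under an unadjusted p of 0.05, with a median of 0.05. Without mouse 12 there were 2, and the median went from 0.18 to 0.10. All 10 endothelial markers were above 0, with a median of 0.06, and only Pecam1 was under an unadjusted p of 0.05, at 75.8 CPM in mouse 8 and 13.7 to 44.8 in the others of its group.

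Of 20 collagen genes, 4 were lower and 1 higher at an unadjusted p under 0.05, against 3.46% and 3.61% of all genes. Col4a2, a basement membrane chain, averaged 97.6 ± 7.99 CPM with few and 75.3 ± 7.74 with many entries (SD, log2 fold change -0.38 ± 0.09 SE, edgeR unadjusted p = 0.000482, adjusted 0.46). Only mouse 4 at 84.4 and mouse 10 at 86.9 were out of order. Col4a2 overlaps exons of Col4a1 on the other strand. Col16a1 (-0.52), Col5a2 (-0.62) and Col27a1 (-0.26) were the other lower members, and Col1a1 (0.90), a fibroblast collagen at 26.1 CPM in mouse 12, was the higher one.

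Of 79 cytosolic ribosomal protein genes 9 were lower and 1 was higher with many entries at an unadjusted p under 0.05, against 3.46% and 3.61% of all genes, and the median was -0.04. Rpl27 had the lowest p, at 28.8 ± 5.33 and 20.2 ± 3.73 CPM (SD, log2 fold change -0.51 ± 0.14 SE, edgeR unadjusted p = 0.00228, adjusted 0.523). Many such genes have pseudogene copies that can share their reads. Without mouse 12 the count was 4 higher and 4 lower, without mouse 11 it was 1 and 15, and with a border at 25 entries 0 and 2. The 13 mitochondrially encoded transcripts were all below 0, by a median of -0.13, with none at an unadjusted p under 0.05, and they share a single precursor in large part. Their share of the total was 10.6% to 15.9% with few and 11.1% to 15.5% with many entries. Of 67 nuclear subunits of oxidative phosphorylation, 4 were lower and 1 higher, 7.46% of the list, which is near the 7.08% of all genes. Ndufb8, a complex I subunit, had a log2 fold change of -0.39 ± 0.11 (SE, edgeR adjusted p = 0.562).

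Excitatory neuron markers of the basolateral amygdala and cortex were divided. Neurod6, a transcription factor of cortical-type excitatory neurons, was at 25.7, 39.7 and 44.7 CPM at the lowest, median and highest with few entries. With many it was 18.6, 30.1, 16.1, 23.7 and 23.2 in mice 6, 7, 8, 10 and 12, with mouse 7 inside the few-entries range (log2 fold change -0.71 ± 0.18 SE, edgeR unadjusted p = 0.00139, adjusted 0.523). Rspo2 was lower (-0.61) and Lmo3 higher (0.38), and Slc17a7, the vesicular glutamate transporter of these cells, averaged 986 ± 232 and 992 ± 185 CPM. Of the 10 markers 5 were above 0. No member of the 15 medial amygdala and hypothalamic-type, the 6 thalamic or the 11 interneuron markers had an unadjusted p under 0.05, with medians of -0.06, -0.03 and -0.15. The lowest p among them were those of Sim1 (0.0752), Ntng1 (0.188) and Vip (0.169).

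Glial and immune lists were near even. None of 13 astrocyte markers (median -0.03, led by Apoe), 11 microglia markers (0.02, led by Aif1) or 21 interferon response and MHC class I genes (0.04, led by Stat2) had an unadjusted p under 0.05. Of 17 oligodendrocyte and myelin markers Mag, a myelin adhesion protein, was higher with many entries (log2 fold change 0.53 ± 0.17 SE, edgeR unadjusted p = 0.00671, adjusted 0.605) and Olig2 lower (-0.28), the latter being also the only one of 5 precursor markers. The 18 heat shock genes had 1 lower member, Hsf1 (-0.21). None of 11 perineuronal net genes (led by Has3), 8 gonadal steroid genes (median -0.09, led by Cyp19a1) or 5 red blood cell markers (-0.05, led by Hbb-bs) was under an unadjusted p of 0.05. Of 9 choroid plexus markers, Kl was higher (0.41) and Folr1 and Otx2 were lower (-1.69 and -1.84), both of these at under 1 CPM in every mouse.

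Pituitary hormone transcripts were uneven among the mice with few entries. Their summed CPM was 58.1 in mouse 4 and 18.8 in mouse 11, against 2.62 to 6.47 in the other mice with few entries and 3.00 to 4.87 with many entries. Prl was at 32.1 CPM in mouse 4 and 4.56 in mouse 11, and Pomc at 3.57 and 7.16, against 0.889 to 1.61 in the other mice of the group and 0.834 to 1.14 with many entries. The median log2 fold change was -2.20 over the 8 hormone genes tested, and -0.05 over the 6 that still passed the count minimum without mice 4 and 11. Without them edgeR called 1 gene, Tph2, the serotonin synthesis enzyme of the raphe, which is named after its value was seen, and the striatal-type list had 18 members above 0 with a median of 0.51 and 2 under an unadjusted p of 0.05. Of the 19 genes that the study names, which it chose on these samples, Pomc alone had an unadjusted p under 0.05.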

How the data were processed

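The data are RNA-seq of bilateral amygdala, 1 library per mouse, sequenced as 75-bp single-end reads. Quality was checked by the authors on trimmed reads mapped to mm10 with STAR, and gene values were built from Salmon's transcript estimates. The authors deposited estimated counts (expected counts) per gene, without normalization and as whole numbers, for 47729 genes. Tool versions, annotation release and use of strand are not given in the sources used here. Symbols and GRCm38 coordinates came from GENCODE M21, which lists 99.1% of the genes. Salmon divides reads between similar transcripts, so near-identical and overlapping genes are less certain.

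Groups came from the total entry label. The mice and the 36 gene lists were chosen with earlier results of these data known. Each library is a separate mouse. Genes with at least 10 reads over the 11 mice were tested with edgeR's quasi-likelihood F-test (robust, TMM factors, no covariate), many minus few, with Benjamini-Hochberg adjustment, and adjusted p under 0.05 was called. CPM used TMM factors. log2 CPM had a prior count of 2. Behavior, depth and marker sums were compared with exact permutation tests of the means. Named genes were the 10 protein-coding genes in each direction with the lowest p among those of at least 1 CPM whose groups did not overlap, the lowest-p member of at least 1 CPM of each list, and Fos, Npas4, Drd1, Drd2, Crh and Penk, and any others are marked or are list members given to show which passed the unadjusted threshold. Depth was 31745630 to 45142355 counts per mouse, and counting limits cover counting error only. The values of a few genes are not reported here. Alternatives covered scaling, filter, test, covariates, the border, mouse 5 and each mouse left out. Procedures were tested on simulated data. R 4.3.3, edgeR 4.0.16, DESeq2 1.42.0, limma 3.58.1, Python 3.11.15 and scipy 1.17.1 were used.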

Additional observations from a re-analysis of the deposited data

Results flagged for a closer look

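A sample far from the rest of its group was found in 10 of 174 sets of values by Dixon's test, where chance gives about 1 in 20. Among mice with few entries, the summed pituitary hormone transcripts were 58.1 CPM in mouse 4 against 2.62 to 18.8 in the others. Dlg4 was 1122 CPM in mouse 9 against 745.0 to 848.0, and Ntng1 was 63.6 CPM in mouse 2 against 29.7 to 38.0.

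Among mice with many entries, time in the light was 46.6% in mouse 6 against 18.1% to 25.7%, and 27763 genes had a read in mouse 12 against 27101 to 27278. The summed astrocyte markers were 6644 CPM in mouse 7 against 4891 to 5398. Chrna4 was 20.3 CPM in mouse 8 against 15.5 to 16.4, and Olig2 was 22.0 CPM in the same mouse against 17.2 to 18.3. Kl was 8.73 CPM in mouse 12 against 4.96 to 6.05, and Pcdh19 was 105 CPM in mouse 10 against 36.7 to 54.7.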

How the results depend on the processing

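The number of genes called was 0 under 3 other scalings, 2 stricter filters, limma, edgeR without the robust option, the PC1 or open-arm covariate, entries as a number, a border at 25 entries, mouse 5 added and the mice with 29 and 30 entries left out. It was 57 with DESeq2's Wald test, 51 with its likelihood ratio test, 1 with a filter of at least 1 read (Arpp21), 1 with the predicted anxiety state as a factor (Gm14288), 1 without mice 4 and 11 (chosen after seeing the data) and 0 to 3 with each mouse left out (Arpp21 without mouse 9, and Clptm1, Pcdh19 and Gm1866 without mouse 10); the cause was not tested. Genes at an unadjusted p under 0.05 numbered 1256 with a border at 25 entries and 2197 without mouse 9. Of 61 named genes, 55 kept their direction in all alternatives run. This was in part fixed by their choice on the same mice. Of them, 20 were picked for groups that did not overlap, and others as the lowest-p member of a list. Entries as a number turned Egr1 (-0.0072), Hbb-bs (0.046), Vip (0.017), Fos (-0.056), Npas4 (-0.0061) and Crh (-0.0072 per SD), the border at 25 turned Hbb-bs (0.13), Vip (0.098), Npas4 (-0.13) and Crh (-0.064), and Npas4 was -0.011 with the PC1 covariate, -0.013 without the mice with 29 and 30 entries and -0.014 to 0.25 with a mouse left out. The box zone ratio difference at 10 min turned with ranks (0.367) and the border at 25 (0.492), and at 5 min with that border (0.276). With a mouse left out it spanned -0.313 to 0.112 and -0.261 to 0.0711, and time in light -0.380 to 6.76 points. Differences that changed sign with a mouse left out were genes with a read (-176.6 to 187.0) and summed CPM of oligodendrocyte precursor (-8.14 to 4.78), astrocyte (-220.8 to 217.4), microglia (-12.2 to 13.4), red blood cell (-11.6 to 1.19), basolateral (-13.4 to 352.3), medial (-19.5 to 2.71) and thalamic (-11.0 to 4.92) markers. What depth and the number of mice limit was not tested. No paired analysis was possible because the groups are different mice with no pairing in the labels.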
